A study of Mus musculus with 8 samples.

Results

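The 10 genes described here encode primary granule proteins of neutrophils, a membrane protein of their precursors, and regulators of that lineage: Mpo, Elane, Prtn3, Ctsg, Ms4a3, Cebpa, Cebpe, Gfi1, Csf3r and Myb. They were taken by gene name, and all 10 were listed in both deposited tables, among 17893 genes that the tables share. Primary (azurophil) granules are made at the promyelocyte stage, when neutrophil precursors load myeloperoxidase and serine proteases into storage vesicles for later killing of microbes. The genes for these proteins come on as multipotent cells enter the granulocyte and monocyte path, under transcription factors of the C/EBP family, PU.1, Myb and Gfi1 and with signals through the G-CSF receptor. Long-term haematopoietic stem cells (LT-HSC) sit above this step, and multipotent progenitors (MPP) stand between them and the committed precursors.

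RNA was measured by poly(A)-selected sequencing in 8 libraries from mouse bone marrow, with 2 libraries in each of 4 groups: MPP KO, MPP WT, LT-HSC KO and LT-HSC WT. KO cells are labelled as knockout for Tet1, a dioxygenase that oxidises 5-methylcytosine in DNA, and WT cells as wild type. All cells were flow sorted from mice that had received KO or WT marrow 20 weeks earlier, with a stated age of 6 months and the strain written CD57BL/6. Each MPP library was made from 100000 cells and each LT-HSC library from 10000 cells. The labels do not state the allele, the part of Tet1 removed, the sort gates, the number of donors or the share of host cells left after transplant. Nothing says that the 2 libraries of a group came from separate animals, so p-values measure the spread between these libraries, which may be technical.

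Libraries held 11928659 to 12504581 counts in MPP and 4976459 to 5479731 counts in LT-HSC, where 3 counts correspond to 0.24 to 0.251 and 0.547 to 0.603 counts per 1000000 of the library total (CPM). Tet1 itself stood at 61.2 and 69.0 CPM in MPP KO against 101 and 110 CPM in MPP WT, a fall of 0.62 on the log2 scale (SE 0.09, edgeR adjusted p = 0.0282). It stood at 62.7 and 74.9 CPM in the libraries labelled LT-HSC KO against 60.6 and 86.0 CPM in LT-HSC WT, which overlap (log2 fold change -0.09, SE 0.19, edgeR adjusted p = 0.765). Counts cover the whole gene, so they do not show whether the removed part was transcribed, and the LT-HSC labels were not borne out by the level of Tet1. Of 16 genes that mark LT-HSC or the progenitors below them, 11 were lower and 3 higher in MPP WT than in LT-HSC WT, among them the stem cell markers Procr, Slamf1, Tek and Esam (lower) and Cd34, Cd48 and Flt3 (higher), while Hlf and Ly6a did not pass. In KO 12 were lower and 4 higher, Ly6a among those higher. These comparisons called 17.4% of all genes tested lower and 16.9% higher in WT, and 27.2% lower and 23.6% higher in KO. In LT-HSC KO against LT-HSC WT 8 of the 16 were lower: Fgd5, Ly6a, Esam, Meis1, Gata2, Ndn, Cd34 (-0.52) and Cd48 (-1.55). Flt3 was higher (0.76), so the 3 genes higher in MPP did not move together. Of all genes tested in LT-HSC, 10.9% were called lower and 22.5% higher. Gene body background was taken as counts per kb of gene span. The LT-HSC KO libraries stood apart in it, with a median of 0.451 and 0.384 over genes longer than 500 kb, against 0.0783 and 0.0699 in LT-HSC WT. They also held 7212 and 6090 CPM of 15 erythroid genes against 2023 and 1808 CPM in LT-HSC WT. Summed Y-linked transcripts were 2.88 and 5.56 CPM in MPP KO against 166 and 174 CPM in MPP WT, and 12.3 and 14.4 CPM in LT-HSC KO against 143 and 177 CPM in LT-HSC WT, so sex and genotype cannot be told apart.

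Elane and Prtn3, which encode neutrophil elastase and proteinase 3, are neighbours on chromosome 10. In the deposited mm9 coordinates Prtn3 spans chr10:79337221-79345919 and Elane spans chr10:79349057-79350961, both on the plus strand and 3137 bp apart. Mpo lies at chr11:87607083-87617915 and Ctsg, for the granule protease cathepsin G, at chr14:56718718-56721411 beside the basophil protease gene Mcpt8. Ms4a3, a membrane protein gene of granulocyte and monocyte precursors, lies at chr19:11703987-11715341. Prtn3 shares 159 bp with BC005764 on the opposite strand, and Gfi1 shares 880 bp with A430072P03Rik. No source used here states whether the authors' counting used strand, so reads in these overlaps cannot be told apart.

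Promoters of Elane, Ms4a3, Mpo and Prtn3 are shown because these 4 genes were all called higher in MPP KO and could be matched. Each runs from 250 bases before to 50 after a transcription start in RefSeq on GRCm38.p6, and 9 of the 10 genes matched that table, with 10 windows in all. Windows are Elane chr10:79886062-79886361 (plus), Prtn3 chr10:79879417-79879716 (plus), Mpo chr11:87793534-87793833 (plus) and Ms4a3 chr19:11640802-11641101 (minus). Capitals mark every match, on either strand, to the short cores GAGGAAG (PU.1), AACNG (Myb), TTGCNNAA (C/EBP) and AAATCA (Gfi1), and no matches overlap in these 4 windows.
Elane: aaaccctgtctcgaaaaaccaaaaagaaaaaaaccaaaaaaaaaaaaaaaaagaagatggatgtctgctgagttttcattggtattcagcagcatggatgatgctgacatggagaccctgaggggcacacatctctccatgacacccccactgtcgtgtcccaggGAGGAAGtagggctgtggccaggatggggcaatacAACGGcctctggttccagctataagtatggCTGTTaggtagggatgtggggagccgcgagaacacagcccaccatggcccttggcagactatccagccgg
Prtn3: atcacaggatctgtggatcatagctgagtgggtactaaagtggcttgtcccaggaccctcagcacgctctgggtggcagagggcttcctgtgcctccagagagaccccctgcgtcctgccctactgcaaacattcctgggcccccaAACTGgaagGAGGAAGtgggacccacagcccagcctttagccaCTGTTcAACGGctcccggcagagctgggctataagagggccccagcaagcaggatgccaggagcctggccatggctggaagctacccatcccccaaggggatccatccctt
Mpo: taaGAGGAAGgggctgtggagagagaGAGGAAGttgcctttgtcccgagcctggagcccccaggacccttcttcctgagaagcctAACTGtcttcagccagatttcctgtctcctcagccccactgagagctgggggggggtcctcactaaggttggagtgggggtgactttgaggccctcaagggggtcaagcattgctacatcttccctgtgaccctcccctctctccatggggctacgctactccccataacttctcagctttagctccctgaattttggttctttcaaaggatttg
Ms4a3: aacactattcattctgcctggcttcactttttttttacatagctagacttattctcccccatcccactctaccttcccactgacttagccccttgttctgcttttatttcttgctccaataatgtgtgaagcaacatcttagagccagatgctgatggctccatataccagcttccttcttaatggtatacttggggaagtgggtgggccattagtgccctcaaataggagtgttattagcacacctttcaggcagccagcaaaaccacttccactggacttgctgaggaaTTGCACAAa

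GAGGAAG was present in 5 of the 10 windows (Elane, Prtn3, Mpo, Ctsg and Csf3r) and in 13.6% of 32851 windows of the same length over all genes. Elane and Prtn3 carried it in the same orientation at -85 and -95 from the start, followed by AACGG at -50 and -55. AACNG is a short core, found in 9 of the 10 windows and in 80.3% of all windows. TTGCNNAA was found in 2 of the 10 windows, those of Ms4a3 and Gfi1, against 10.8% of all windows, and AAATCA in 0 of the 10 against 14.0% of all windows. A match describes the letters in a window and is neither a binding site nor a cause.

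Mpo, Elane, Ctsg and Ms4a3 were far higher in MPP than in LT-HSC in both genotypes, while the regulators covered a wide range. In WT cells, 9 of the 10 genes passed the threshold as higher in MPP (edgeR quasi-likelihood test, Benjamini-Hochberg adjusted p below 0.05), where 16.9% of the 14660 genes tested were called higher, 17.4% lower and 34.3% either way. In KO cells all 10 passed, where 23.6% of 16150 genes were called higher, 27.2% lower and 50.8% either way (46.5% of these calls were higher, or 35.9% with library size alone, which moved the median of all genes from 0.01 to -0.13). Both MPP libraries lay above both LT-HSC libraries for all 10 genes in each genotype, which 30.2% of all genes did in KO and 35.0% in WT, while 43.5% and 33.3% lay below. Cell number, depth and table also differ between MPP and LT-HSC libraries and cannot be told apart from the population. In bulk samples, fewer cells of a type and less RNA per cell cannot be told apart either.

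**Figure D1:**
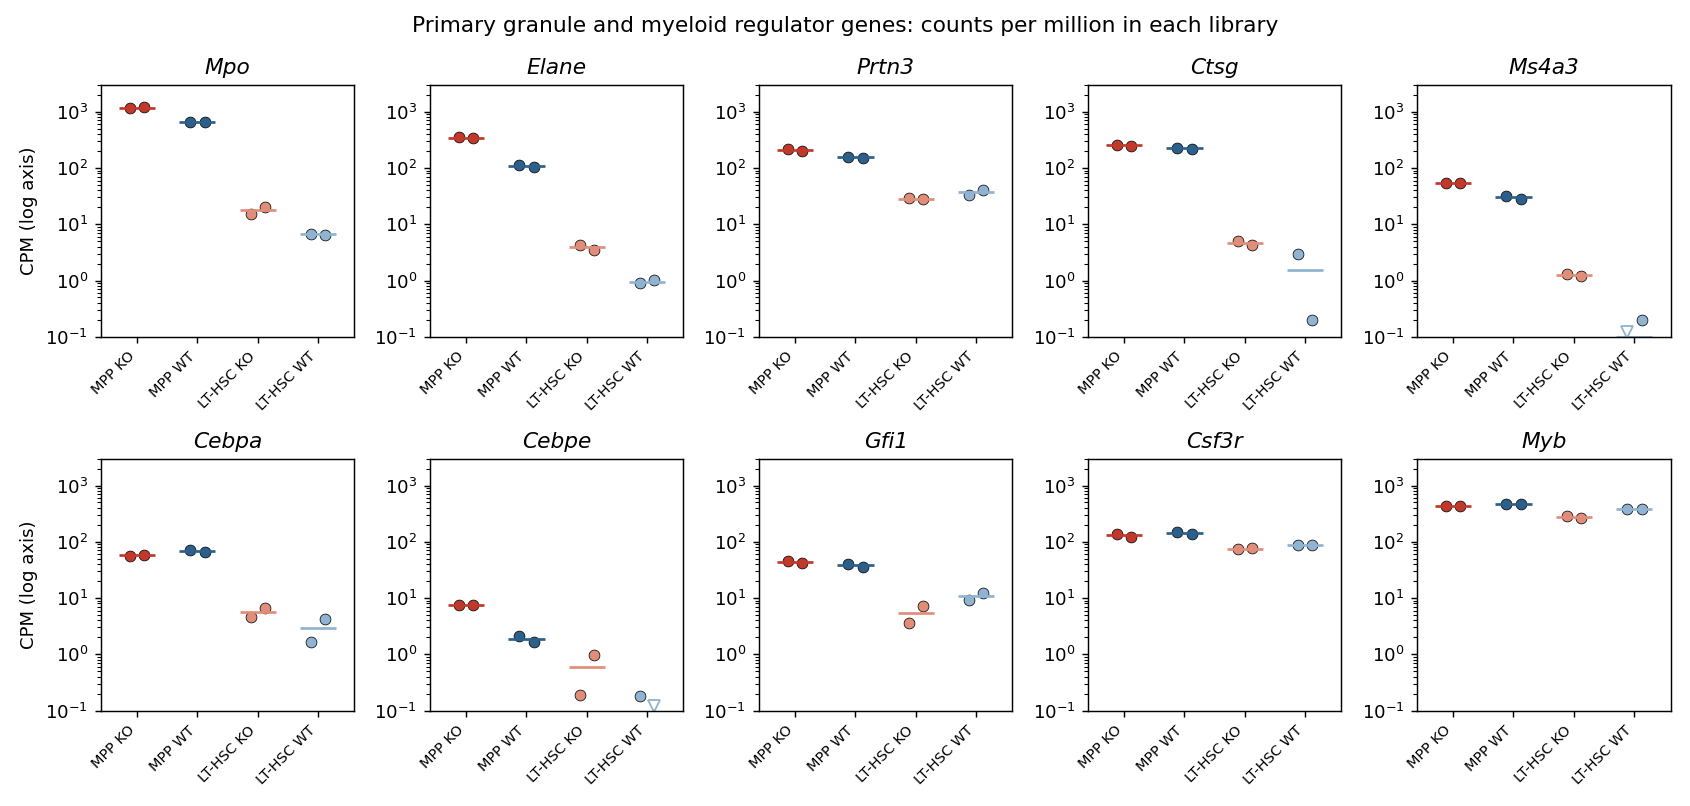
CPM of each of the 10 genes (log axis) in the 4 groups, with a point for each library and a line at the group mean; open triangles at the bottom of the axis stand for counts of 0. Mpo reaches 1164 and 1201 CPM in MPP KO, and Ms4a3 and Cebpe each have a count of 0 in a LT-HSC WT library.

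Mpo encodes myeloperoxidase, the haem enzyme that makes hypochlorous acid in the phagosome. It had 1164 and 1201 CPM in MPP KO, 649 and 662 CPM in MPP WT, 15.5 and 20.6 CPM in LT-HSC KO, and 6.75 and 6.43 CPM in LT-HSC WT. The 4 groups did not overlap, and MPP stood above LT-HSC by 6.18 (SE 0.19) in KO and by 6.61 (SE 0.17) in WT on the log2 scale.

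Elane had 349 and 340 CPM in MPP KO, 112 and 103 CPM in MPP WT, 4.29 and 3.56 CPM in LT-HSC KO, and 0.912 and 1.00 CPM in LT-HSC WT. Its groups did not overlap, and each LT-HSC WT library rested on 5 counts. The MPP level was higher by 6.59 (SE 0.17) in KO and by 6.77 (SE 0.21) in WT on the log2 scale. Ctsg had 257 and 250 CPM in MPP KO, 224 and 222 CPM in MPP WT, 5.04 and 4.35 CPM in LT-HSC KO, and 2.92 and 0.201 CPM in LT-HSC WT. The LT-HSC WT libraries of Ctsg held 16 counts and 1 count, so this gene was uneven within a group in a way the other proteases were not.

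Prtn3 stood out among the proteases for its level in stem cells. It had 219 and 203 CPM in MPP KO, 157 and 152 CPM in MPP WT, 29.3 and 27.9 CPM in LT-HSC KO, and 33.6 and 41.0 CPM in LT-HSC WT. The step to MPP was 3.03 (SE 0.13) in KO and 2.04 (SE 0.13) in WT on the log2 scale. Elane counts per Prtn3 count were therefore 1.59 and 1.67 in MPP KO and 0.710 and 0.677 in MPP WT. They were 0.146 and 0.128 in LT-HSC KO and 0.0272 and 0.0245 in LT-HSC WT, so the neighbours differed most in LT-HSC WT. BC005764, which shares 159 bp with Prtn3 on the opposite strand, had 67.34 and 73.55 CPM in LT-HSC WT. The part of reads from that overlap in the Prtn3 level was not tested.

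Ms4a3 had 55.0 and 54.4 CPM in MPP KO, 31.8 and 28.1 CPM in MPP WT, 1.31 and 1.19 CPM in LT-HSC KO, and 0 and 0.201 CPM in LT-HSC WT. Between WT groups it held 717 counts in MPP and 1 in LT-HSC, a ratio of 313 after scaling to library size (95% exact binomial interval 56.0 to 12400). Such intervals cover counting error only. In KO the MPP level was higher by 5.58 on the log2 scale (SE 0.22).

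Cebpa encodes C/EBPα, which opens the granulocyte and monocyte programme, and Cebpe encodes C/EBPε, which acts later in granule maturation. Cebpa had 56.1 and 58.9 CPM in MPP KO, 70.8 and 66.8 CPM in MPP WT, 4.67 and 6.72 CPM in LT-HSC KO, and 1.64 and 4.22 CPM in LT-HSC WT. Cebpe had 7.52 and 7.58 CPM in MPP KO, 2.10 and 1.66 CPM in MPP WT, 0.187 and 0.988 CPM in LT-HSC KO, and 0.182 and 0 CPM in LT-HSC WT. Cebpe was thus the lowest of the 10 genes in every MPP library and near the floor in LT-HSC. Its WT counts of 45 in MPP and 1 in LT-HSC gave a ratio of 19.6 (95% exact binomial interval 3.35 to 793), and the edgeR call (adjusted p = 0.0156) was lost with DESeq2 (adjusted p = 0.0583; 7.18e-05 to 0.0583 over the alternatives).

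Gfi1 encodes a zinc finger repressor that favours neutrophils over monocytes and restrains stem cell division. It had 44.8 and 41.8 CPM in MPP KO, 40.4 and 36.3 CPM in MPP WT, 3.55 and 7.12 CPM in LT-HSC KO, and 9.31 and 12.46 CPM in LT-HSC WT. Csf3r, the G-CSF receptor gene, had 138 and 124 CPM in MPP KO, 150 and 138 CPM in MPP WT, 73.7 and 76.9 CPM in LT-HSC KO, and 88.9 and 87.0 CPM in LT-HSC WT. Myb, a transcription factor gene used from the stem cell onward, had 424 and 436 CPM in MPP KO, 461 and 466 CPM in MPP WT, 284 and 268 CPM in LT-HSC KO, and 385 and 378 CPM in LT-HSC WT. Csf3r and Myb had the smallest steps between populations. For Csf3r the step was 0.94 (SE 0.12) in KO and 0.69 (SE 0.13) in WT, and the WT call was lost without MPP WT replicate 1 or without MPP WT replicate 2 (edgeR adjusted p = 0.102 and 0.0542). For Myb it was 0.78 (SE 0.12, edgeR adjusted p = 0.00122) in KO and 0.26 (SE 0.13, edgeR adjusted p = 0.157) in WT.

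**Figure D2:**
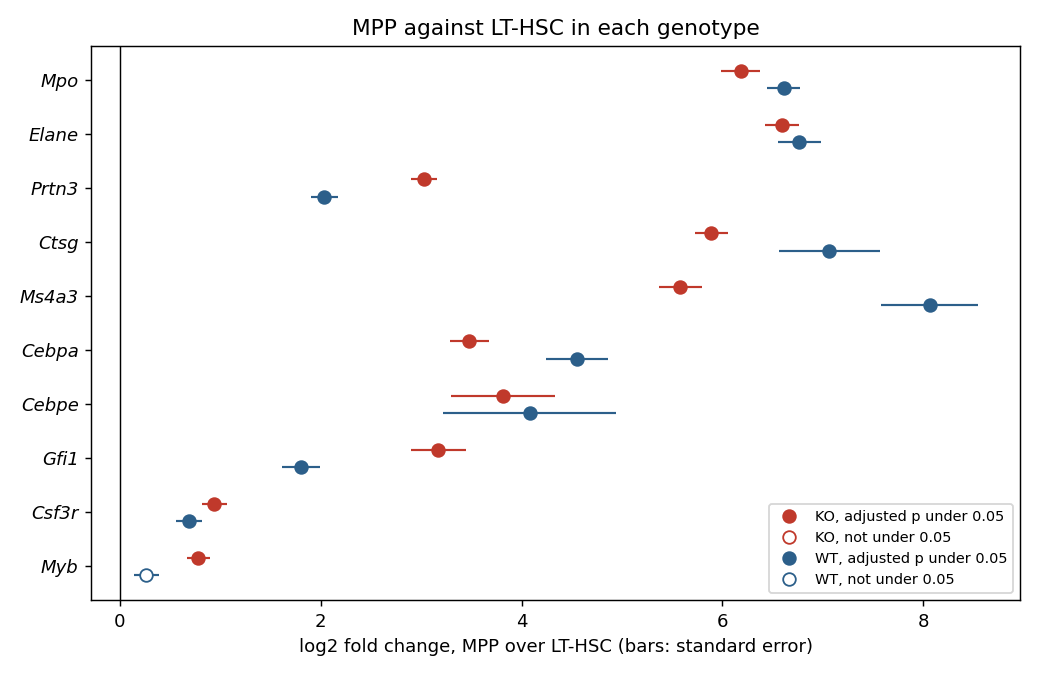
Log2 fold change of MPP over LT-HSC for each gene, KO above WT in each pair; points are edgeR estimates, filled where the adjusted p is under 0.05, with lines of 1 SE to each side. The points reach 6.59 in KO and 8.07 in WT, and the smallest are those of Myb, 0.78 in KO and 0.26 in WT.

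Per kilobase of exon, the order of the genes differed between the groups. In MPP KO the highest levels were those of Elane at 350 ± 6.83 and Mpo at 345 ± 7.64 CPM per kb (SD, n = 2), which did not differ beyond their spread, ahead of Ctsg at 245 ± 5.13 and Prtn3 at 122 ± 6.70. In MPP WT Ctsg led at 216 ± 0.821 CPM per kb, followed by Mpo at 192 ± 2.58, Elane at 109 ± 6.47 and Prtn3 at 89.3 ± 2.25. In LT-HSC the regulators led: Myb stood at 30.9 ± 1.29 in KO and 42.7 ± 0.562 in WT, then Csf3r at 20.9 ± 0.615 in KO and 24.4 ± 0.364 in WT. Prtn3 came next at 16.5 ± 0.588 in KO and 21.5 ± 3.03 CPM per kb in WT, and in WT it lay within its spread of Csf3r. The 10 genes summed to 2714 and 2715 CPM in MPP KO, 1898 and 1875 CPM in MPP WT, 422 and 417 CPM in LT-HSC KO, and 529 and 530 CPM in LT-HSC WT. Mpo made up 42.9% and 44.2% of that sum in MPP KO and 34.2% and 35.3% in MPP WT, whereas Myb made up 67.4% and 64.3% in LT-HSC KO and 72.7% and 71.2% in LT-HSC WT.

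In MPP KO, 3 of the 4 genes for granule proteins (Mpo, Elane and Prtn3) were higher than in MPP WT, as were Ms4a3 and Cebpe, while Ctsg, Cebpa, Gfi1, Csf3r and Myb did not pass the test. Of the 10 genes, 5 passed as higher and 0 as lower, where 4.74% of the 14902 genes tested were called higher, 2.46% lower and 7.2% either way. Higher genes made up 65.9% of all calls, or 48.6% when libraries were scaled by size alone. The 10 genes had a median log2 fold change of 0.39, against -0.01 over all genes tested. Both KO libraries lay above both WT libraries for 7 of the 10 genes and below them for 2, which 21.3% and 35.4% of all genes did.

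Cebpe and Elane rose most. Cebpe held 94 and 94 counts in MPP KO against 25 and 20 in MPP WT, a log2 fold change of 2.08 (SE 0.20, edgeR adjusted p = 0.0104). Elane held 4365 and 4211 counts in MPP KO against 1333 and 1236 in MPP WT, a log2 fold change of 1.76 (SE 0.07, edgeR adjusted p = 0.00128). The libraries of a group were close together for both genes, and the groups were far apart. Cebpe counts per Cebpa count were 0.134 and 0.129 in MPP KO against 0.0296 and 0.0249 in MPP WT.

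Ms4a3 and Mpo followed. Ms4a3 held 688 and 675 counts in MPP KO against 379 and 338 in MPP WT, a log2 fold change of 0.95 (SE 0.09, edgeR adjusted p = 0.0103). Mpo held 14554 and 14894 counts in MPP KO against 7745 and 7962 in MPP WT, a log2 fold change of 0.93 (SE 0.07, edgeR adjusted p = 0.00526). Both genes were close to 2-fold higher, at 1.93-fold and 1.90-fold. Prtn3 rose less than its neighbour Elane: it held 2744 and 2517 counts in MPP KO against 1878 and 1827 in MPP WT, a log2 fold change of 0.53 (SE 0.07, edgeR adjusted p = 0.0218).

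The remaining 5 genes moved little. Ctsg was at 0.26 (SE 0.06, edgeR adjusted p = 0.0747) and Gfi1 at 0.25 (SE 0.09, edgeR adjusted p = 0.17) on the log2 scale, with both KO libraries above both WT libraries. Cebpa was at -0.18 (SE 0.08, edgeR adjusted p = 0.215) and Myb at -0.03 (SE 0.06, edgeR adjusted p = 0.804), with both KO libraries below both WT libraries in CPM. Csf3r was at -0.06 (SE 0.09, edgeR adjusted p = 0.715), and its libraries overlapped between genotypes.

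**Figure D3:**
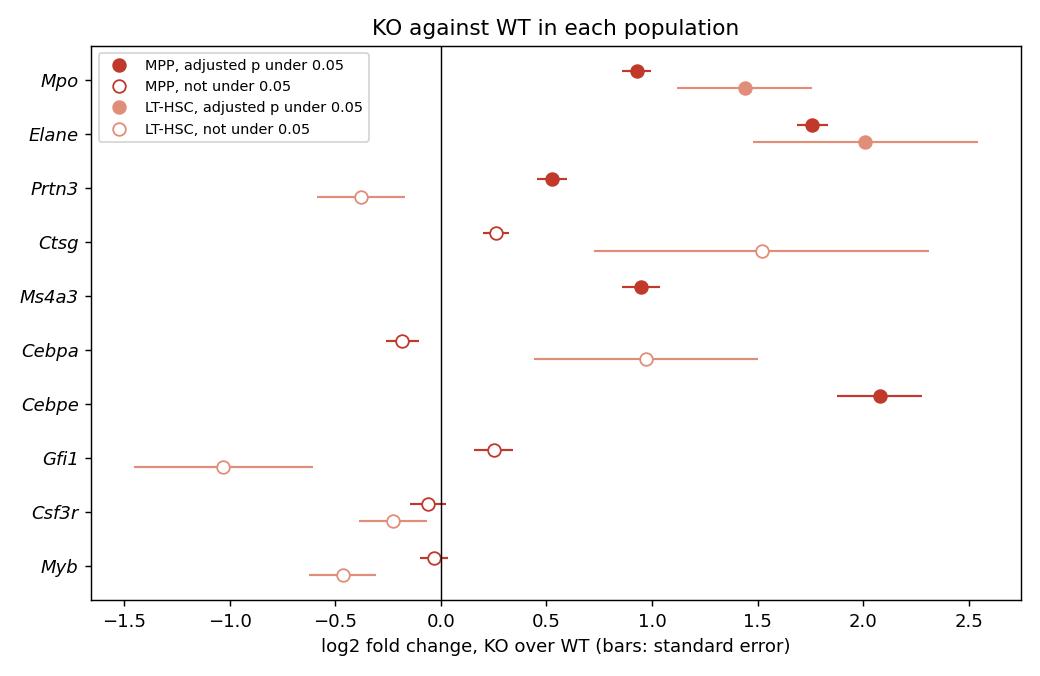
Log2 fold change of KO over WT for each gene in MPP and LT-HSC, MPP above LT-HSC in each pair; points are edgeR estimates, filled where the adjusted p is under 0.05, with lines of 1 SE to each side. Ms4a3 and Cebpe have no LT-HSC point because their counts were too low for the fit, and Prtn3 and Gfi1 lie right of 0 in MPP and left of it in LT-HSC.

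The MPP calls rest on both MPP WT libraries, and those of Prtn3, Ms4a3 and Cebpe on MPP KO libraries as well. Without MPP WT replicate 1 or without MPP WT replicate 2, edgeR called 0 of all genes, although 2119 and 2220 genes had an unadjusted p below 0.05. The fold changes of the 5 genes then stayed close to those above (Elane 1.81 and 1.70, adjusted p = 0.296 and 0.281). Prtn3 also lost its call without MPP KO replicate 1 (adjusted p = 0.111) or replicate 2 (adjusted p = 0.0811), and Ms4a3 and Cebpe lost theirs without MPP KO replicate 1 (adjusted p = 0.0509 and 0.0504).

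In LT-HSC, Mpo and Elane were higher in the libraries labelled LT-HSC KO. Of 8 genes with enough counts to be tested, 2 passed as higher and 0 as lower. Across the 15684 genes tested, 22.5% were called higher, 10.9% lower and 33.4% either way, so the count of 2 in 8 is close to the background. The median log2 fold change of the 8 was 0.37, against 0.03 over all genes tested. Both KO libraries lay above both WT libraries for 6 of the 10 genes and below them for 4, which 41.0% and 26.2% of all genes did. The 6 include Ms4a3 and Cebpe, which had too few counts to be tested. For Cebpe the order rests on 1 count in KO replicate 1 against 1 count in WT replicate 1.

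Mpo held 83 and 104 counts in the LT-HSC KO libraries against 37 and 32 in LT-HSC WT, a log2 fold change of 1.44 (SE 0.32, edgeR adjusted p = 0.00939). Without LT-HSC KO replicate 2 it no longer passed (adjusted p = 0.103; 0.00021 to 0.103 over the alternatives). Elane held 23 and 18 counts in the LT-HSC KO libraries against 5 and 5 in LT-HSC WT, a log2 fold change of 2.01 (SE 0.53, edgeR adjusted p = 0.0204). Its call was lost with DESeq2 (adjusted p = 0.0972), after background subtraction (adjusted p = 0.0712) and on leaving out any single library (adjusted p = 0.219 and 0.129 without KO replicates 1 and 2, 0.0863 and 0.0718 without WT replicates 1 and 2). The gene body background would give 5.88% and 4% of the Mpo counts in LT-HSC KO. For Elane it would give 3.73% and 4.06%. These shares apply the density over genes longer than 500 kb to the span of each gene. Whether that density holds for short genes was not tested.

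Prtn3, Ctsg, Ms4a3 and Cebpe had no call in LT-HSC. Ctsg held 27 and 22 counts in the LT-HSC KO libraries against 16 and 1 in LT-HSC WT (log2 fold change 1.52, SE 0.79, edgeR adjusted p = 0.18), and it passed without LT-HSC WT replicate 1 (4.42, adjusted p = 0.00159). Ms4a3 held 7 and 6 counts in the LT-HSC KO libraries against 0 and 1 in LT-HSC WT, and was not tested. The ratio of the Ms4a3 sums, 13 to 1, was 13 after scaling (95% exact binomial interval 1.96 to 555), but reads at the gene body background would give 73.1% and 72.6% of its KO counts. Cebpe held 1 and 5 counts against 1 and 0, a ratio of 6.02 (interval 0.731 to 277), and was not tested either. Prtn3, the best measured of the proteases here, held 157 and 141 counts in the LT-HSC KO libraries against 184 and 204 in LT-HSC WT (log2 fold change -0.38, SE 0.21, edgeR adjusted p = 0.199).

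Among the regulators, Cebpa stood apart from Gfi1, Csf3r and Myb. Cebpa held 25 and 34 counts in the LT-HSC KO libraries against 9 and 21 in LT-HSC WT (log2 fold change 0.97, SE 0.53, edgeR adjusted p = 0.2), and passed without LT-HSC WT replicate 2 (1.68, adjusted p = 0.0479). Gfi1 held 19 and 36 counts in the LT-HSC KO libraries against 51 and 62 in LT-HSC WT (log2 fold change -1.03, SE 0.42, edgeR adjusted p = 0.0968), and passed without LT-HSC WT replicate 1 (-1.20, adjusted p = 0.0325). Myb held 1524 and 1357 counts in the LT-HSC KO libraries against 2108 and 1879 in LT-HSC WT (log2 fold change -0.47, SE 0.16, edgeR adjusted p = 0.0516), just short of the threshold. It passed under DESeq2's size factors (adjusted p = 0.0415), under library size alone (adjusted p = 0.039) and without LT-HSC WT replicate 2 (adjusted p = 0.04). Csf3r held 395 and 389 counts in the LT-HSC KO libraries against 487 and 433 in LT-HSC WT (log2 fold change -0.23, SE 0.16, edgeR adjusted p = 0.321). For Gfi1, Csf3r and Myb the KO libraries lay below the WT libraries in CPM.

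Whether the genotype difference itself differed between the populations was tested in a single fit over all 8 libraries. The difference was lower in LT-HSC than in MPP for 3 of the 10 genes and higher for 0, where 8.50% of the 16551 genes tested were called lower, 13.6% higher and 22.1% either way. Higher genes made up 61.6% of these calls, or 49.2% after background subtraction. Prtn3, whose reads in the overlap with BC005764 could not be separated, had the firmest difference. It was -0.91 on the log2 scale (SE 0.17, edgeR adjusted p = 0.00853), with KO above WT in MPP and below WT in LT-HSC. Its adjusted p was 0.000287 to 0.0492 over 14 alternatives. For Gfi1 the difference was -1.29 (SE 0.37, edgeR adjusted p = 0.0378), and the call was lost in 8 of 14 alternatives (adjusted p up to 0.125). For Myb it was -0.44 (SE 0.13, edgeR adjusted p = 0.0482), lost in 10 of 14 alternatives (adjusted p up to 0.272). Mpo (0.51, SE 0.21, edgeR adjusted p = 0.121) and Elane (0.25, SE 0.29, edgeR adjusted p = 0.731) did not pass, so a difference between populations was not detected for these genes.

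The authors' deposited table gives KO over WT from a fit of their own. For MPP the authors' deposited table gives an FDR of 1.13e-10 for Elane, 1.77e-08 for Cebpe, 0.00322 for Mpo, 0.00367 for Ms4a3 and 0.218 for Prtn3. For LT-HSC the authors' deposited table gives 0.000813 for Mpo, 0.00294 for Elane, 0.00998 for Ctsg, 0.0111 for Ms4a3 and 0.0294 for Gfi1, whose log2 fold change there is -1.01. Prtn3 in MPP is thus past the threshold in the edgeR fit here and not in the authors' deposited table, and Ctsg and Gfi1 in LT-HSC the reverse.

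A further list held other genes of the promyelocyte stage, some for granule proteins or their handling and some for enzymes and surface receptors. In MPP, where 4.74% of all genes tested were called higher and 2.46% lower, 5 of 16 in the list rose in KO and 0 fell. The median log2 fold change of the list was 0.15. Its genes closest to the granule did not pass: Prss57, a serine protease, was at 0.00 (SE 0.09), Ctsc, which activates the granule proteases, at -0.03 (SE 0.08), Serpinb1a, an inhibitor of them, at -0.29 (SE 0.10), and Srgn, the proteoglycan of the granule matrix, at -0.03 (SE 0.10). The risers were Nucb2 (1.31, SE 0.12), Hdc, the histamine-forming enzyme (1.21, SE 0.09), Hp, haptoglobin (0.80, SE 0.13), Clec12a, an inhibitory receptor (0.79, SE 0.08), and Gstm1 (0.38, SE 0.07), with edgeR adjusted p between 0.00502 and 0.0488. In LT-HSC, where 22.5% of all genes tested were called higher and 10.9% lower, 1 of 13 was higher and 2 were lower. The median of the 13 was -0.49. The fallers were Plac8 (-1.79, SE 0.21, edgeR adjusted p = 0.000809) and Gstm1 (-1.03, SE 0.19, edgeR adjusted p = 0.00396). Summed over the 16 listed genes, levels were 2734 and 2699 CPM in MPP KO against 2741 and 2743 CPM in MPP WT, and 1357 and 1291 CPM in LT-HSC KO against 1712 and 1705 CPM in LT-HSC WT. The MPP sum is carried by a few abundant genes that did not pass, with Calr at 1277 and 1192 CPM in MPP KO against 1217 and 1164 CPM in MPP WT, and Srgn at 552 and 623 CPM against 595 and 668 CPM.

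Other myeloid transcription regulators include factors upstream and downstream of the C/EBP genes. In LT-HSC, 11 of 20 tested were lower in KO and 2 higher, with a median log2 fold change of -0.69. There 10.9% of all genes tested were called lower and 22.5% higher. In MPP, 2 of 20 were lower and 0 higher, with a median of -0.03, where 2.46% of all genes were called lower and 4.74% higher. Among genes averaging at least 10 counts, the largest falls in LT-HSC were those of Id2 (-2.70, SE 0.40) and Id1 (-2.07, SE 0.28), inhibitors of helix-loop-helix factors, Klf4 (-1.94, SE 0.18), a monocyte regulator, and Rara (-1.62, SE 0.25), the retinoic acid receptor α gene, with edgeR adjusted p between 0.000286 and 0.00214. Those called higher were Klf5 (1.04, SE 0.32) and Ikzf1 (0.73, SE 0.17). In MPP the calls were Id1 (-1.58, SE 0.18, edgeR adjusted p = 0.0146) and Gata2 (-0.45, SE 0.07, edgeR adjusted p = 0.0335). Sfpi1, the deposited name of the gene for PU.1, was at -0.12 (SE 0.07, edgeR adjusted p = 0.335) in MPP and -0.34 (SE 0.17, edgeR adjusted p = 0.168) in LT-HSC.

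Partners and degraders bind the regulators or set their lifetime. Of 13 tested, 0 were called in MPP, where 7.2% of all genes were called. In LT-HSC, 0 were higher and 2 lower, against 22.5% and 10.9% of all genes. The 2 were Kdm1a, the demethylase that Gfi1 recruits (-0.78, SE 0.16, edgeR adjusted p = 0.0067), and Trib1, an adaptor that marks C/EBPα for degradation (-0.76, SE 0.17, edgeR adjusted p = 0.0108). Of the other myeloid cytokine receptors, 0 of 10 were called in MPP. In LT-HSC 2 of 9 were lower and 1 was higher, where 33.4% of all genes were called either way. The lower genes were Csf2rb2 (-1.70, SE 0.28, edgeR adjusted p = 0.00269) and Csf2rb (-1.31, SE 0.33, edgeR adjusted p = 0.0161), subunits of the IL-3 and GM-CSF receptors. The higher gene was Flt3 (0.76, SE 0.21, edgeR adjusted p = 0.0239).

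Markers of later and other cell types moved in the same comparisons. In MPP, 4.74% of all genes tested were called higher and 2.46% lower. The mature neutrophil list summed to 354 and 336 CPM in MPP KO against 347 and 317 CPM in MPP WT, which overlap. Of 12 tested, 3 rose (Ngp 1.41, S100a8 1.31 and Cybb 0.84) while Cxcr2 fell by 1.45. The rest did not pass: S100a9 (-0.85), Padi4 (-0.69), Itgam (-0.33), Lyz2 (-0.25), Ncf1 (0.02), Lcn2 (0.33), Ltb4r1 (0.58) and Chi3l3 (0.79). Of the defining secondary granule markers in that list, Ltf had 8 and 20 counts in MPP KO against 0 and 0 in MPP WT. Camp had 1 and 1 against 9 and 9, and Lcn2 had 34 and 28 against 26 and 24. The eosinophil, basophil and mast cell list summed to 196 and 190 CPM in MPP KO against 130 and 131 CPM in MPP WT. There 4 of its 8 tested genes rose: Ear1 (2.62), Epx (1.58), Prg2 (1.25) and Mcpt8 (0.54). The other 4 did not pass: Il5ra (-0.78), Cpa3 (-0.30), Fcer1a (-0.11) and Ms4a2 (0.14). For Il5ra and Cpa3 both KO libraries lay below both WT libraries in CPM. Of the monocyte list, 3 of 14 tested rose in MPP KO, led by Cd14 (3.41), and 1 fell, Ccr2 (-1.78), while the sum was 715 and 737 CPM in MPP KO against 678 and 696 CPM in MPP WT. The erythroid list summed to 1754 and 1600 CPM in MPP KO against 1339 and 1227 CPM in MPP WT, with 6 of 15 tested higher and 0 lower. The part of such cells in the rises of Mpo, Elane, Prtn3, Ms4a3 and Cebpe in MPP was not tested.

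In LT-HSC, 22.5% of all genes tested were called higher and 10.9% lower. The mature neutrophil list summed there to 211 and 153 CPM in KO against 325 and 196 CPM in WT, which overlap. Most of the WT sums came from Lyz2 (219 and 126 CPM) and Padi4 (91.4 and 49.6 CPM). Of 9 tested, 4 were higher (Ngp, S100a8, Ltf and Chi3l3) and 1 lower, Lyz2, which had the most counts of them (-1.07, SE 0.34, edgeR adjusted p = 0.0411). Itgam (0.28, SE 0.38), Padi4 (-0.59, SE 0.31), Cybb (0.87, SE 0.53) and Ncf1 (-1.31, SE 0.54) did not pass. Ngp reached 44 and 40 counts in the KO libraries, and S100a8 reached 32 and 28, while both had 0 in each WT library. Lcn2 was at 0 in all 4. The monocyte list summed to 90.2 and 81.6 CPM in LT-HSC KO against 51.3 and 47.0 CPM in LT-HSC WT, with 6 of 11 tested higher and 1 lower. The endothelial and stromal list summed to 790 and 599 CPM in LT-HSC KO against 146 and 150 CPM in LT-HSC WT, with 9 of 13 higher. Of the erythroid genes 14 of 15 were higher, while 6 of 9 megakaryocyte genes were lower. The part of such cells in the levels of Mpo and Elane in LT-HSC was not tested.

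**Figure D4:**
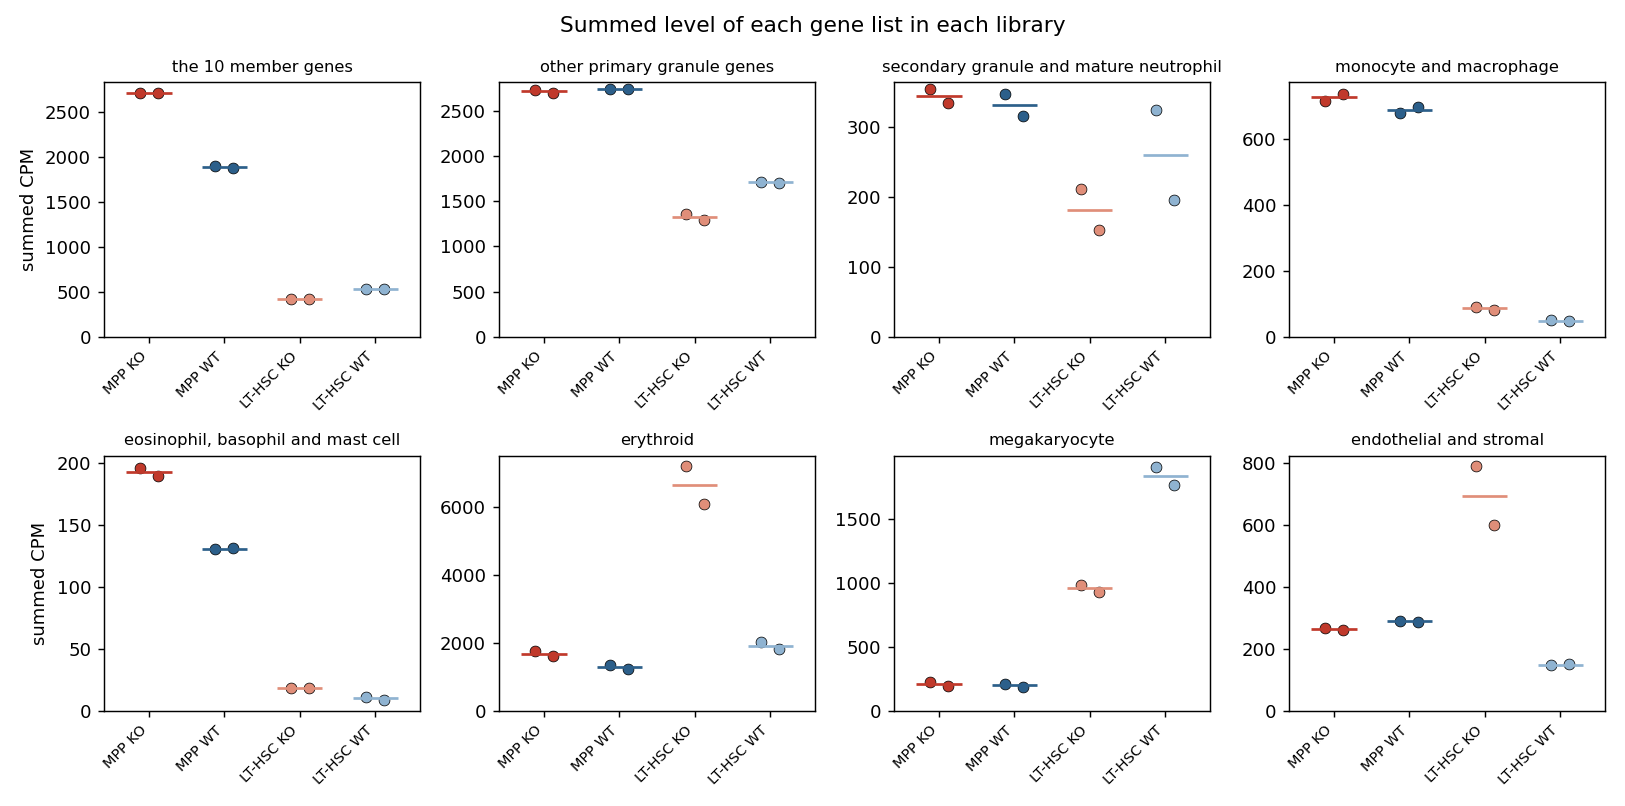
Summed CPM of the 10 genes and of 7 marker lists in each library (points) with the group mean (line), from MPP KO at the left to LT-HSC WT at the right; each axis starts at 0 and has its own scale. The 10 genes reach 2714 and 2715 CPM in MPP KO against 1898 and 1875 in MPP WT, whereas the sums titled other primary granule genes, carried by Calr and Srgn, lie at 2734 and 2699 against 2741 and 2743.

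Across the 8 libraries the 10 genes varied together, and all of them share the split between MPP and LT-HSC. Pearson correlations of log2 CPM between pairs ran from 0.586 (Cebpe and Myb) to 0.994 (Mpo and Elane) over 8 libraries. Genes outside the list with the profile most like Mpo, among 11760 genes with a mean of at least 50 counts, were Ablim1 (r = 0.999), Map3k1 (0.999), Chst1 (0.999), BC017643 (0.998) and Igkv3-2 (0.997), but 505 genes had an r above 0.95. The nearest profile was Slamf7 for Elane (0.998), Pou2af1 for Prtn3 (0.999), Iglv3 for Ctsg (0.994), Cmah for Ms4a3 (0.998) and Npc2 for Cebpa (0.998). It was Sepsecs for Cebpe (0.983), Pag1 for Gfi1 (0.994), Aurkb for Csf3r (0.996) and Ptprc for Myb (0.997). The libraries also differ in depth and cell number along the same split.

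Genes beside the 10 on the chromosome were called in some places, where 7.2% of all genes tested were called in MPP and 33.4% in LT-HSC. In MPP, Mcpt8 beside Ctsg rose by 0.54 (edgeR adjusted p = 0.0273) and Oosp1 beside Ms4a3 rose by 0.87 (edgeR adjusted p = 0.0382). BC005764, which overlaps Prtn3 on the other strand, was lower in KO in MPP (-0.46, edgeR adjusted p = 0.0386), against the direction of Prtn3. It was also lower in LT-HSC (-0.73, edgeR adjusted p = 0.0171), where Prtn3 was at -0.38 without a call. Ptbp1, on the far side of Prtn3, was at -0.14 (edgeR adjusted p = 0.348) in MPP, and Bzrap1 beside Mpo at 0.53 (edgeR adjusted p = 0.0518). In LT-HSC KO, Evi5 beside Gfi1 was higher by 2.06 (edgeR adjusted p = 0.00153) and Hbs1l beside Myb by 0.87 (edgeR adjusted p = 0.00447), while Gfi1 and Myb were at -1.03 and -0.47. 2610028E06Rik beside Csf3r was also called higher there (edgeR adjusted p = 0.00222).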

How the data were processed

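Gene expression was measured by poly(A) RNA sequencing (paired-end, 50 bp reads) in 8 mouse libraries. CASAVA and TopHat were used with mm9, per the submitters' processing notes; no source used here gives versions, the counting tool or its strand setting. The authors deposited 1 table per population with raw counts per Ensembl gene, and with their own log2 fold changes (KO over WT), p-values, FDR and a likelihood ratio score. The authors' score was not used. The tables list 19685 genes for LT-HSC and 18904 for MPP, and 0 value columns were left without a sample. Each column was tied to its sample by the genotype and final number in its name.

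The counts were tested over all genes with edgeR 4.0.16 in R 4.3.3: filterByExpr, TMM scaling, a two-sided quasi-likelihood test without replicate block and Benjamini-Hochberg adjustment, threshold 0.05. Fits used 4 libraries each (8 for the interaction), and the interaction and population comparisons used the 17893 genes in both tables. Standard errors are the fold change over the square root of the test statistic. CPM are counts per 1000000 of the library total, and levels per kb use exon lengths from GENCODE M21. Ratios of low counts carry 95% exact binomial intervals (scipy 1.17.1). Alternatives were DESeq2's size factors (RLE), library size alone, no filter, DESeq2 1.42.0, a replicate block, subtraction of gene body background and leaving out each library. The procedure was tested on simulated data with known changes. The 2 libraries of a group differed by 10.4 to 14.9 times sampling noise (chi-square per degree of freedom), and each was counted as a sample.

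The 10 genes, the other gene lists and the rule for named genes (up to 4 called genes per list and comparison by fold change, with a mean of at least 10 counts) were chosen with earlier results of these data known. Some genes were named beside results outside that rule, after their values were seen. These were Ltf, Camp and Lcn2, the stem cell markers, the neighbours, Sfpi1, Tet1, Calr, and the counts of Ngp and S100a8. The others were genes that did not pass or were not tested in the promyelocyte, neutrophil, and eosinophil, basophil and mast cell lists.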

Additional observations from a re-analysis of the deposited data

Results flagged for a closer look

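For 3 genes the effect of genotype differed between the populations in a test of the difference itself, given as the KO over WT log2 fold change in LT-HSC minus that in MPP, with edgeR's quasi-likelihood test. The value was -0.91 for Prtn3 (adjusted p = 0.00853), -1.29 for Gfi1 (adjusted p = 0.0378) and -0.44 for Myb (adjusted p = 0.0482). Prtn3 kept this call in all 14 alternatives, and the other two lost it in 8 and 10 of 14. Their KO libraries lay below their WT libraries in LT-HSC for all 3 genes, and in MPP above them for Prtn3 and Gfi1.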

How the results depend on the processing

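Over all alternatives, 519 fold changes of single genes were recomputed: 455 kept their direction and side of the threshold, 42 lost a call, 17 gained a call and 5 changed direction. The changes of direction were Csf3r in MPP without MPP KO replicate 2 (0.0103; -0.1381 to 0.0103 on leaving out a library), and, in the difference between populations, Csf3r after background subtraction (0.0023) and Cebpe after background subtraction (-0.0318), without LT-HSC KO replicate 2 (-1.21) and without LT-HSC WT replicate 2 (-0.54; -1.21 to 3.2974 on leaving out a library), none of them called. For LT-HSC KO against WT, 2 of the 10 genes were called as reported, 1 with DESeq2, 1 after background subtraction and 0 to 3 on leaving out a library. The count over all genes was 5245 as reported, 1900 after background subtraction and 2325 to 6756 on leaving out a library. For MPP KO against WT, 5 of the 10 genes were called as reported and 0 to 4 on leaving out a library. Over all genes it was 1073 as reported, 575 with no filter and 0 to 268 on leaving out a library. For the difference between populations, 3 of the 10 genes were called as reported, 1 with library size alone, 1 after background subtraction and 1 to 3 on leaving out a library. Over all genes it was 3663 as reported, 1903 after background subtraction and 1132 to 4237 on leaving out a library. For MPP against LT-HSC, leaving out a library gave 10 to 10 of the 10 genes in KO and 7 to 9 in WT, and 5370 to 6585 and 2465 to 7070 over all genes (8197 and 5022 as reported); background subtraction gave 5063 in KO. The causes were not tested beyond fewer samples in each such fit.

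The replicate numbers are shared between genotypes, but the labels do not say that a number marks a litter or day, and 2 pairs per comparison are too few to decide. Same-numbered libraries deviated together (correlation 0.685 in MPP and 0.425 in LT-HSC). With a replicate block, Ctsg, Cebpa and Gfi1 gained a call in MPP, Prtn3, Ctsg, Gfi1 and Myb in LT-HSC, and Mpo and Cebpa for the difference. In all, 8 of the 10 genes were called in MPP, 6 in LT-HSC and 5 for the difference, and 7234, 8826 and 7940 over all genes, with 7819 for MPP WT against LT-HSC WT.

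Library size alone moved the median of all genes to -0.134 for MPP KO against LT-HSC KO and to 0.117 for the difference. It moved the share of calls that were higher from 65.9% to 48.6% in MPP and from 46.5% to 35.9% in MPP KO against LT-HSC KO. Background subtraction moved that share from 61.6% to 49.2% for the difference. Depth limits Ms4a3, Cebpe, Ctsg and Elane in LT-HSC most.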
